A study of Mus musculus with 12 samples.

Results

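Messenger RNA of 31 genes that make, import, store or export cholesterol was followed in hepatocytes of fasted and fed mice. The genes were taken by symbol from a list of the pathway, and all 31 were found among the 28030 Ensembl gene identifiers of the count table. Of these, 30 were among the 12086 genes with enough counts to be tested, and the last, Mylip, was not. The list holds 3 regulators, 18 enzymes on the way from acetyl-CoA to cholesterol, 1 enzyme of a side branch, and 9 genes of uptake, handling, ester storage and export.

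The libraries form 4 groups of 3: pericentral (PC) and periportal (PP) hepatocytes of mice fasted for 24 h, and PC and PP hepatocytes of fed mice. In each lobule of the liver, PC hepatocytes surround the central vein and PP hepatocytes the portal tract. All mice were wild-type females, 12 weeks old, kept on normal chow. All were trained for 3 days to fast overnight for 16 h and to eat for 8 h by day, and on the day of the experiment all had food and water with 20% sucrose. Fed mice were killed after 4 h of this meal, and fasted mice 24 h after food and sucrose water were withdrawn, so that both were killed at the same time of day. The labels name digitonin, a detergent that kills hepatocytes at one end of the lobule and leaves the others to be collected. Libraries within a group are labelled biological replicates, and it is not stated whether one animal could give both a PC and a PP library.

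Hepatocytes build cholesterol from acetyl-CoA, first through mevalonate to farnesyl pyrophosphate and then through squalene and lanosterol. SREBP-2, the product of Srebf2, is held in the endoplasmic reticulum by Scap and an Insig protein while sterols are plentiful; when sterols run short it is carried to the Golgi, cut, and turns on the genes of synthesis and uptake. Excess cholesterol is esterified, passed to lipoproteins, or sent into bile through transporters whose genes respond to the oxysterol receptors LXR, and the liver is the main organ for each of these routes.

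Totals ran from 16245846 to 27449412 estimated counts per library, so that only the rarest of these genes were limited by counting. The 10 PC markers summed to 13985 to 25053 CPM (counts scaled to a common library size) in fasted PC libraries against 379 to 1191 in fasted PP libraries, and to 16503 to 17545 CPM in fed PC libraries against 1066 to 2035 in fed PP libraries. The 10 PP markers summed to 7717 to 9498 CPM in fasted PC libraries against 16200 to 22255 in fasted PP libraries, and to 2962 to 3632 CPM in fed PC libraries against 8962 to 11193 in fed PP libraries. Markers of Kupffer, endothelial, stellate and lymphoid cells summed to at most 6.78, 16.3, 16 and 2.22 CPM in any library. Fasted PC replicate 1 stood apart from its group, with the innermost PC gene Glul at 172 CPM against 3639 and 2353 CPM in fasted PC replicates 2 and 3, and the PP gene Hal at 579 CPM against 69.9 and 109 CPM. Its effect on each call is given below where leaving it out changed that call.

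Averaged over both zones, fasting lowered 12 of the 18 synthesis enzymes, lowered Insig1, Stard4 and Abca1 too, and raised Npc1, Soat2, Abcg5 and Abcg8. With each zone tested separately, 8 of the 18 enzymes were called lower in PC and 9 in PP, and 8 were called lower in both. In the averaged comparison 15 of the 30 tested genes were lower and 4 higher in fasted than in fed mice (edgeR quasi-likelihood test, Benjamini-Hochberg adjusted p under 0.05 over all 12086 genes). Among all tested genes, 17.5% were lower and 17.8% higher. The share of cholesterol genes called lower was above this background, and the share called higher was not. The list was chosen with earlier results of these data known, so these shares describe it and do not test it. The median log2 fold change was -0.52 over the 30 genes and 0.00 over all tested genes. In PC hepatocytes 11 were lower and 3 higher, where 10.2% and 11.1% of all genes were, and in PP hepatocytes 12 were lower and 3 higher, where 9.50% and 8.39% were. Both zones called 11 of the genes lower and 2 higher, as they did 6.45% and 6.32% of all genes. Without overlap between the 3 fasted and the 3 fed libraries, 17 genes were lower and 4 higher in PC (20.2% and 21.5% of all genes), and 12 were lower and 4 higher in PP (17.8% and 16.8%). Fewer cells of a kind in a preparation and less RNA per cell cannot be told apart in such bulk libraries.

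**Figure D1:**
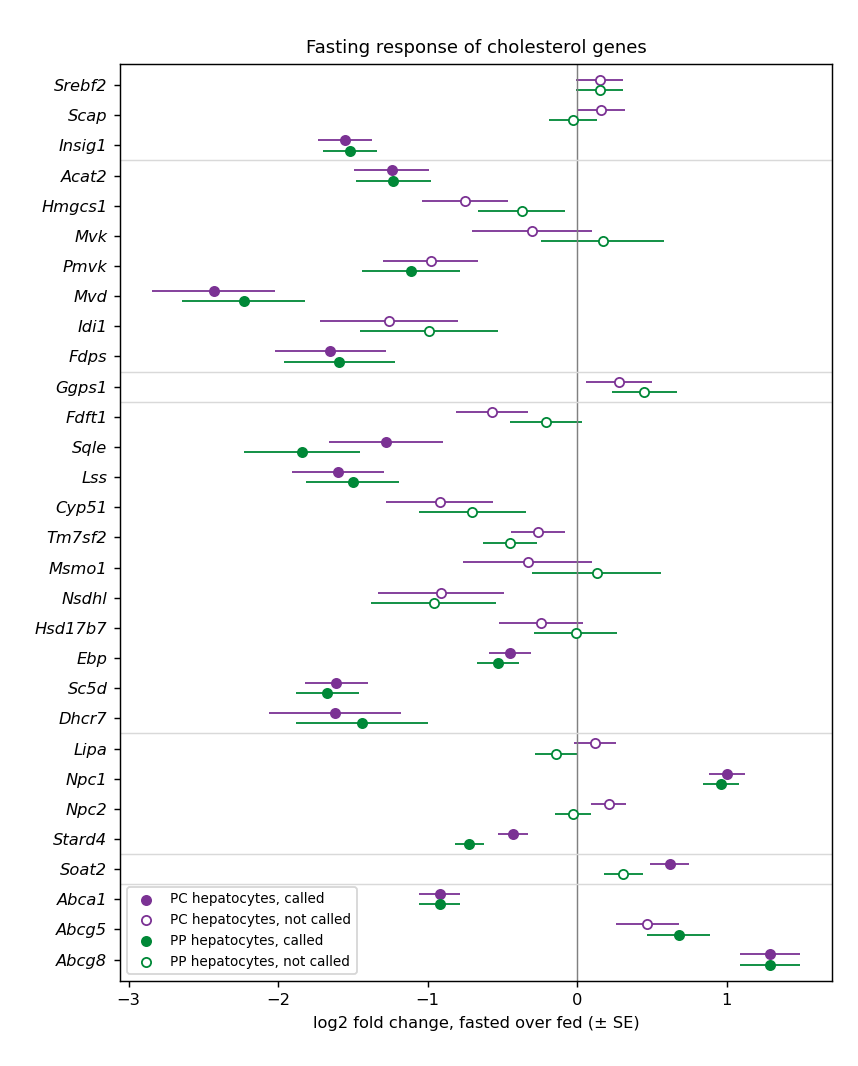
Log2 fold change, fasted over fed, with its standard error, of the 30 tested cholesterol genes in PC (upper, purple) and PP (lower, green) hepatocytes; filled circles passed edgeR's adjusted p under 0.05, and grey lines part the roles. Mvd lies farthest left in both zones, at -2.43 in PC and -2.23 in PP, and Abcg8 farthest right, at 1.29 in both.

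The upstream sequences of 7 of the genes are shown because their responses span the pathway: Insig1, Mvd and Sc5d had the smallest adjusted p in their roles, Mvk and Hmgcs1 are mevalonate enzymes that were not called, and Abcg8 and Abca1 are exporters that moved in opposite directions. Each is the longest stretch outside annotated exons of the 250 bases before the RefSeq start (GRCm38.p6, first listed start), written 5′ to 3′ on the strand of the gene. Capitals mark CCAAT on either strand, the box bound by NF-Y, a partner of the SREBPs, and the sterol response element searched for as TCACNCCAC.
Insig1, chr5:28071162-28071362, + strand: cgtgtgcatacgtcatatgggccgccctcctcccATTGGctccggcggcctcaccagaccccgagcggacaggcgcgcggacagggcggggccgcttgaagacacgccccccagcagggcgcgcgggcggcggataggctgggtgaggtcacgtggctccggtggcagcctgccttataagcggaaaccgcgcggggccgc
Mvd, chr8:122443423-122443672, - strand: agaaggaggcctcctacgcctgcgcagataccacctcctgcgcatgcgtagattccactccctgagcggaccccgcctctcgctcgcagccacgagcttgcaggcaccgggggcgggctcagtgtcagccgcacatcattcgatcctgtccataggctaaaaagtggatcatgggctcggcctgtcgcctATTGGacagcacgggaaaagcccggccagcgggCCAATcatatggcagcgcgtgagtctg
Sc5d, chr9:42264301-42264550, - strand: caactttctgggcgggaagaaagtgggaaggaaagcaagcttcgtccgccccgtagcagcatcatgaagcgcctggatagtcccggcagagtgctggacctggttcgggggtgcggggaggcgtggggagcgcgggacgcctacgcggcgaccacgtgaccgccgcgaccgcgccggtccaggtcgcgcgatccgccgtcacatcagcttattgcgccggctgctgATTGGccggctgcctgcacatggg
Mvk, chr5:114444061-114444268, + strand: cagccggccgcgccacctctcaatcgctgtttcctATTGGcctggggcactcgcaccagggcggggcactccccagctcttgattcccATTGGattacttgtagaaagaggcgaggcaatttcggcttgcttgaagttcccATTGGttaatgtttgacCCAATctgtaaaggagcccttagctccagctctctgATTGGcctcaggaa
Hmgcs1, chr13:119690101-119690350, + strand: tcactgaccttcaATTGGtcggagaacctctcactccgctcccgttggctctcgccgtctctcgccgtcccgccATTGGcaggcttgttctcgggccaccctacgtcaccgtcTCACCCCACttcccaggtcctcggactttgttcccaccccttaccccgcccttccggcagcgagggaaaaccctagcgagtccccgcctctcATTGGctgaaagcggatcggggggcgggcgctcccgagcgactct
Abcg8, chr17:84683012-84683120, + strand: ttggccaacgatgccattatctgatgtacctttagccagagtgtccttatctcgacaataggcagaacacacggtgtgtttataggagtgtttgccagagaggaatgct
Abca1, chr4:53159896-53160145, - strand: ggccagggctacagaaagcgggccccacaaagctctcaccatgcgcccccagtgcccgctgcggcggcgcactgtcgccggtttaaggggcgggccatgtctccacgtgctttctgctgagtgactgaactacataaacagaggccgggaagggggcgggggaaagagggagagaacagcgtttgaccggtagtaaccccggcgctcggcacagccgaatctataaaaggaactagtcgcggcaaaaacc
Hmgcs1 held the one match to the sterol element, 137 bases before its start, and 3 CCAAT boxes; in the printed stretches no match to one motif overlapped a match to the other. Mvk held 5 CCAAT boxes in 208 bases, Mvd 2, Insig1 and Sc5d 1 each, and the stretches of Abcg8 and Abca1 none. The Abcg8 stretch adjoins the 5′ end of Abcg5, which is read in the opposite direction. By the GENCODE M21 bounds of Abcg8 (chr17:84676302-84700333) the stretch lies inside the gene, so the annotations differ on where Abcg8 starts. Over the full 250 bases, 25 of the 31 genes had a window, of which 21 held CCAAT, 20 held the GC box GGGCGG and 1 held TCACNCCAC; of 27025 genes with a window, 37.5%, 35.4% and 1.22% did. These are matches of letters. Genes that fell with fasting and genes that were not called both held CCAAT and the GC box. The sterol element was matched only in Hmgcs1, which was not called for fasting.

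Of the regulators, the sensor Insig1 fell by a similar amount in both zones, and the transcripts of Srebf2 and Scap were not called. Insig1 (chr5:28071363-28078662, + strand), which keeps the SREBP complex in the endoplasmic reticulum, stood at 506, 416 and 440 CPM in fasted PC libraries, against 1369, 1347 and 1270 CPM in fed PC libraries. In fasted PP libraries it stood at 506, 479 and 334 CPM, against 968, 1316 and 1502 CPM in fed PP libraries. Every fasted library lay below every fed library. Its log2 fold change was -1.55 ± 0.18 (SE) in PC (edgeR adjusted p = 0.00019) and -1.52 ± 0.18 in PP (edgeR adjusted p = 0.00027).

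Srebf2, the gene of the transcription factor, stood at 71.6, 63.3 and 77.7 CPM in fasted PC libraries, against 57.5, 70 and 64.1 CPM in fed PC libraries. In PP its values were 69.3, 79.7 and 49 CPM in fasted mice, against 55.9, 53.3 and 68.6 CPM in fed mice. The groups overlapped in both zones, with an averaged log2 fold change of 0.15 ± 0.12 (edgeR adjusted p = 0.34). Scap, the escort of SREBP-2, stood at 121, 117 and 112 CPM in fasted PC libraries and at 98.6, 103 and 113 CPM in fed PC libraries. In PP it stood at 129, 107 and 103 CPM in fasted mice and 84, 128 and 133 CPM in fed mice. Its groups overlapped too, and its averaged log2 fold change was 0.06 ± 0.11 (edgeR adjusted p = 0.69).

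Of the 7 mevalonate enzymes, 5 fell with fasting in the averaged comparison (Acat2, Pmvk, Mvd, Idi1 and Fdps), and Hmgcs1 and Mvk were not called. Mvd (chr8:122433601-122443422, - strand), which decarboxylates mevalonate pyrophosphate, had the lowest fold change of all 30 tested genes. It stood at 19.9, 12.8 and 20.7 CPM in fasted PC libraries, against 91.6, 85.9 and 111 CPM in fed PC libraries. In PP it stood at 10.8, 21.2 and 6.38 CPM in fasted mice, against 37.8, 62.3 and 80.8 CPM in fed mice. No fasted library reached a fed one, and the level was 5.04-fold lower on average (log2 fold change -2.33 ± 0.29, edgeR adjusted p = 2e-04).

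Fdps, farnesyl pyrophosphate synthase, stood at 157, 118 and 194 CPM in fasted PC libraries, against 369, 550 and 555 CPM in fed PC libraries. In PP its values were 91.1, 115 and 41.7 CPM in fasted mice, against 169, 248 and 327 CPM in fed mice, and the averaged log2 fold change was -1.62 ± 0.26 (edgeR adjusted p = 0.00075). The fasted and fed groups were apart in each zone. Acat2, the cytosolic thiolase that joins acetyl-CoA units, stood at 92.4, 80.1 and 85.9 CPM in fasted PC libraries, against 151, 202 and 258 CPM in fed PC libraries. It stood at 55.9, 62.7 and 51.4 CPM in fasted PP libraries, against 84, 133 and 182 CPM in fed PP libraries. Its groups were apart in both zones (averaged log2 fold change -1.24 ± 0.18, edgeR adjusted p = 0.00029), but its counts are uncertain, since the mouse has a near-identical gene, Acat3.

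Idi1, isopentenyl diphosphate isomerase, stood at 286, 167 and 278 CPM in fasted PC libraries, against 342, 722 and 683 CPM in fed PC libraries. Its PP values were 182, 192 and 55.4 CPM in fasted mice, against 205, 289 and 355 CPM in fed mice. The groups did not overlap in either zone, yet neither zone alone was called (edgeR adjusted p = 0.08 in PC and 0.17 in PP), and the averaged log2 fold change was -1.12 ± 0.32 (edgeR adjusted p = 0.022). Pmvk, phosphomevalonate kinase, stood at 55.3, 40.4 and 54.8 CPM in fasted PC libraries, against 75, 111 and 111 CPM in fed PC libraries. PP hepatocytes held 32.2, 38 and 20 CPM in fasted mice, against 35, 82 and 77.7 CPM in fed mice. Its groups were apart in PC and overlapped in PP, with an averaged log2 fold change of -1.04 ± 0.23 (edgeR adjusted p = 0.0053).

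Hmgcs1, which makes HMG-CoA and whose upstream stretch holds the sterol element, stood at 340, 198 and 337 CPM in fasted PC libraries, against 356, 602 and 511 CPM in fed PC libraries. Among PP libraries, 213, 251 and 130 CPM were measured in fasted mice, against 219, 225 and 324 CPM in fed mice. Its groups were apart in PC by a narrow gap and overlapped in PP, and the averaged log2 fold change of -0.56 ± 0.21 was not called (edgeR adjusted p = 0.054). Mvk, mevalonate kinase, ranged from 21.9 to 32.9 CPM in fasted PC libraries against 25.3 to 41.2 in fed PC libraries, and from 6.79 to 24.8 CPM in fasted PP libraries against 11.9 to 20.9 in fed PP libraries. Its averaged log2 fold change was -0.07 ± 0.29 (edgeR adjusted p = 0.88), so that Mvk and Mvd, parted in the pathway by Pmvk alone, lay at opposite ends of the mevalonate enzymes. Ggps1, which leads farnesyl pyrophosphate into the geranylgeranyl branch, stood between 3.64 and 6.72 CPM in all 12 libraries and was not called (averaged log2 fold change 0.37 ± 0.15, edgeR adjusted p = 0.082).

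The call of Idi1 ended without fasted PC replicate 2, fed PC replicate 3 or fed PP replicate 3 (adjusted p 0.05 to 0.051), and Hmgcs1 was called without fasted PP replicate 2 or fed PC replicate 1 (-0.67 and -0.65, adjusted p 0.033 and 0.032), as was Ggps1 without fed PP replicate 2 (0.47, adjusted p = 0.036). The call of Pmvk in PP alone ended without fasted PC replicate 3, fasted PP replicate 1 or 3, or replicate 2 or 3 of fed PC or fed PP (log2 fold change -1.14 to -0.87, adjusted p 0.053 to 0.14), and that of Fdps in PP without fed PP replicate 3 (-1.34, adjusted p = 0.05). In PC alone, Idi1 was called without fasted PP replicate 3 (-1.27, adjusted p = 0.016), and Pmvk without fasted PP replicate 3 or fed PP replicate 1 (adjusted p 0.039 and 0.012). DESeq2 called Hmgcs1 averaged over zones (adjusted p = 0.017) and in PC (0.032), and Idi1 and Pmvk in PC (0.045 and 0.0077). Fitting only the 2 groups compared also called Idi1 and Pmvk in PC (edgeR adjusted p = 0.039 and 0.01) but not Pmvk in PP (0.1). The averaged call of Idi1 ended with no filter on low counts (0.061) and with the replicate block (0.056), as did that of Pmvk in PP (0.1 and 0.066).

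**Figure D2:**
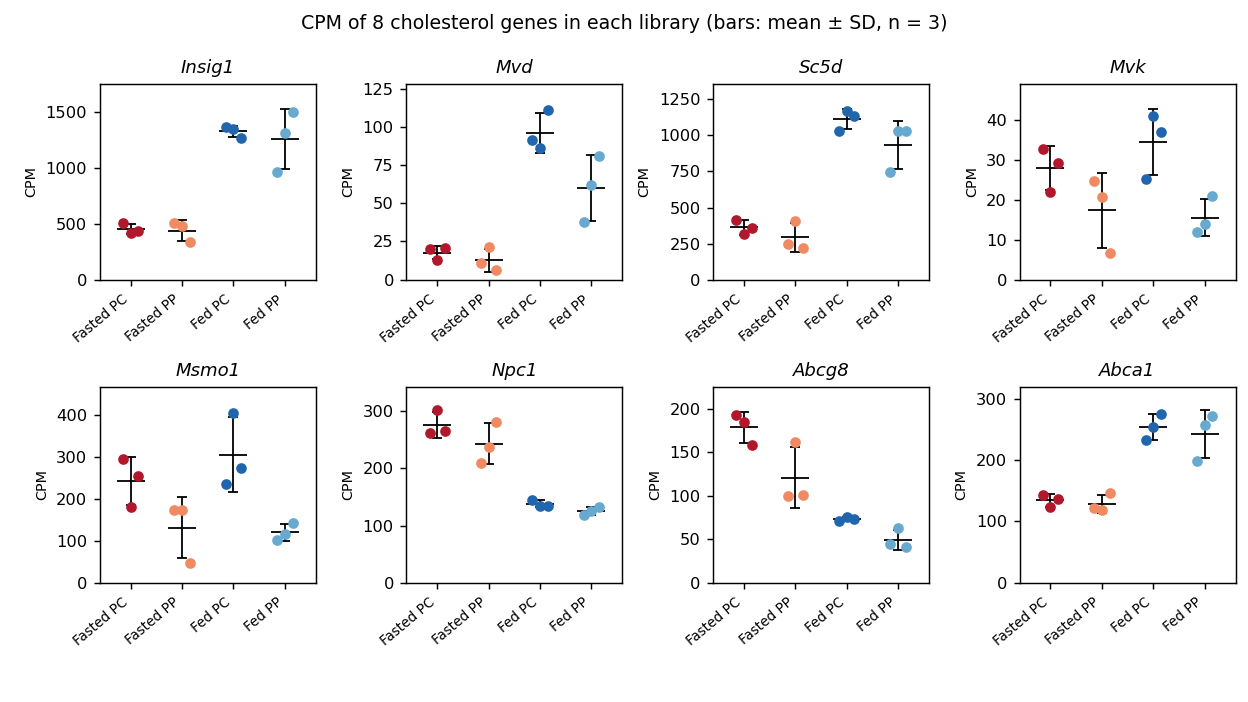
CPM of 8 cholesterol genes in each of the 12 libraries; points are libraries, and bars give the mean ± SD of each group (n = 3). Insig1, Mvd, Sc5d and Abca1 are lower and Npc1 higher in every fasted than in every fed library, whereas the fasted and fed points of Mvk and Msmo1 overlap in each zone.

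Of the 11 squalene and sterol enzymes, 7 fell with fasting in the averaged comparison (Sqle, Lss, Cyp51, Nsdhl, Ebp, Sc5d and Dhcr7), and Fdft1, Tm7sf2, Msmo1 and Hsd17b7 were not called. Sc5d (chr9:42251595-42264256, - strand), the sterol desaturase late in the pathway, had the smallest adjusted p of the 18 synthesis enzymes. It stood at 414, 314 and 360 CPM in fasted PC libraries, against 1033, 1169 and 1132 CPM in fed PC libraries. In PP it stood at 250, 408 and 223 CPM in fasted mice, against 743, 1029 and 1032 CPM in fed mice. Every fasted library lay below every fed one, with an averaged log2 fold change of -1.64 ± 0.15 (edgeR adjusted p = 9.4e-06).

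Sqle, squalene epoxidase, which adds the oxygen needed to close the rings, stood at 94.3, 61.3 and 93 CPM in fasted PC libraries, against 155, 222 and 225 CPM in fed PC libraries. Its PP values were 85.7, 93.3 and 43.8 CPM in fasted mice, against 136, 286 and 378 CPM in fed mice, and the averaged log2 fold change was -1.56 ± 0.27 (edgeR adjusted p = 0.0013). Both zones showed groups that were apart, and the PP libraries of fed mice spread most. Lss, lanosterol synthase, stood at 63.7, 53.2 and 59.9 CPM in fasted PC libraries, against 128, 199 and 210 CPM in fed PC libraries. It stood at 57.5, 58.8 and 41.1 CPM in fasted PP libraries, against 84.2, 138 and 223 CPM in fed PP libraries. Its fasted libraries lay below every fed library, with an averaged log2 fold change of -1.55 ± 0.22 (edgeR adjusted p = 0.00035).

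Dhcr7, which reduces the last intermediate to cholesterol, stood at 57.3, 34.5 and 49.9 CPM in fasted PC libraries, against 96.8, 170 and 168 CPM in fed PC libraries. PP hepatocytes held 42.3, 57.3 and 26.4 CPM in fasted mice, against 52.6, 114 and 175 CPM in fed mice. The PP groups overlapped through fed PP replicate 1, and the averaged log2 fold change was -1.53 ± 0.31 (edgeR adjusted p = 0.0037). Ebp, a sterol isomerase, stood at 173, 142 and 152 CPM in fasted PC libraries, against 204, 186 and 246 CPM in fed PC libraries. It stood at 146, 159 and 118 CPM in fasted PP libraries, against 184, 225 and 200 CPM in fed PP libraries. Its shift was small and without overlap in either zone (averaged log2 fold change -0.49 ± 0.10, edgeR adjusted p = 0.0026).

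Cyp51, lanosterol demethylase, stood at 258, 166 and 229 CPM in fasted PC libraries, against 292, 497 and 448 CPM in fed PC libraries. Among PP libraries, 175, 213 and 69.1 CPM were measured in fasted mice, against 198, 249 and 297 CPM in fed mice. The groups were apart in PC and overlapped in PP, and the gene was called in the averaged comparison (log2 fold change -0.81 ± 0.26, edgeR adjusted p = 0.031) and in neither zone alone. Nsdhl, a sterol dehydrogenase, stood at 76.5, 58.5 and 68 CPM in fasted PC libraries, against 82.2, 133 and 167 CPM in fed PC libraries. It stood at 35.1, 57.1 and 19 CPM in fasted PP libraries, against 40.7, 82.1 and 93.2 CPM in fed PP libraries. It too was called in the averaged comparison (log2 fold change -0.93 ± 0.30, edgeR adjusted p = 0.033) and in neither zone.

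Msmo1, a sterol methyl oxidase, stood at 294, 179 and 253 CPM in fasted PC libraries, against 236, 405 and 274 CPM in fed PC libraries. In PP it stood at 172, 174 and 46.2 CPM in fasted mice, against 102, 115 and 142 CPM in fed mice. The groups overlapped in both zones, and the averaged log2 fold change was -0.10 ± 0.30 (edgeR adjusted p = 0.82). Fdft1, squalene synthase, stood at 136, 90.4 and 112 CPM in fasted PC libraries, against 140, 181 and 180 CPM in fed PC libraries. It stood at 100, 104 and 52.8 CPM in fasted PP libraries, against 84.3, 104 and 108 CPM in fed PP libraries. The groups were apart in PC by a narrow gap and overlapped in PP (averaged log2 fold change -0.39 ± 0.17, edgeR adjusted p = 0.091).

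Tm7sf2, a sterol reductase, stood at 139, 209 and 207 CPM in fasted PC libraries, against 207, 200 and 258 CPM in fed PC libraries. Its PP values were 91.4, 131 and 120 CPM in fasted mice, against 143, 182 and 142 CPM in fed mice. It overlapped in PC and was apart in PP, with an averaged log2 fold change of -0.35 ± 0.13 that just missed the threshold (edgeR adjusted p = 0.05). Hsd17b7, a reductase of sterol ketones, ranged from 109 to 160 CPM in fasted PC libraries against 127 to 179 in fed PC libraries, and from 67.7 to 123 CPM in fasted PP libraries against 65.1 to 132 in fed PP libraries. It was not called (averaged log2 fold change -0.12 ± 0.20, edgeR adjusted p = 0.67).

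The averaged call of Cyp51 ended without replicate 2 or 3 of fasted PC, fed PC or fed PP (-0.84 to -0.73, adjusted p 0.05 to 0.071), and that of Nsdhl without any of these or fasted PP replicate 1 (-0.94 to -0.81, adjusted p 0.061 to 0.078), while Tm7sf2 was called without replicate 2 of fasted PC or of fasted PP (-0.40 and -0.42, adjusted p 0.046 and 0.035). Within one zone, leaving out 1 library ended calls of 3 further genes: in PC, Sqle without any 1 fasted PC library, replicate 2 or 3 of fed PC or replicate 2 of fed PP (adjusted p 0.051 to 0.12), Ebp without fasted PC replicate 2 or 3 or fed PC replicate 1 or 3 (0.074 to 0.19) and Dhcr7 without fasted PC replicate 2 or 3 or fed PC replicate 2 or 3 (0.067 to 0.091). In PP, Ebp was not called without fasted PP replicate 1 or 3 or fed PP replicate 2 or 3 (0.053 to 0.1), and Dhcr7 was not called without any one library other than fed PC replicate 1 and fed PP replicate 1 (0.053 to 0.17). Cyp51 and Fdft1 were called in PC alone without fasted PP replicate 3 (-0.94 and -0.58, adjusted p 0.015 and 0.023). Fitting only the 2 groups compared called Cyp51, Fdft1 and Nsdhl in PC (edgeR adjusted p = 0.028, 0.038 and 0.04). DESeq2 called Cyp51 in PC (adjusted p = 0.024), Nsdhl in PP (0.047) and Tm7sf2 averaged over zones (0.038). With no filter on low counts or with the replicate block, edgeR called Tm7sf2 on average (0.041 and 0.015). Cyp51 and Nsdhl were then not called (0.059 to 0.083). Some calls of Sqle, Ebp and Dhcr7 in a single zone also ended under alternatives.

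Some values can hold reads of a neighbour, because the library kit does not mark strand. Exons of Fdft1 overlap those of Ctsb, those of Cyp51 those of Akap9, those of Ggps1 those of Arid4b, those of Npc1 those of Rmc1 and those of Abcg5 those of Abcg8, all on the opposite strand, and those of Tm7sf2 overlap Vps51 on the same strand.

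Over the 18 synthesis enzymes together, 12 were lower and 0 higher in the averaged comparison, with 0 higher at an unadjusted p under 0.05 or by DESeq2, and all 18 fold changes were negative. The median log2 fold change was -0.95 in PC and -0.97 in PP. Genes of one pathway are not independent of each other, so the number that agree in sign is a description. Levels of different genes were set side by side per kilobase of exon. All annotated exons of a gene were counted, used here or not, so the order is rough. Insig1 had the highest group mean of the 31 genes in every group. It had 147 CPM per kb in fasted PC and 142 in fasted PP, against 430 in fed PC and 408 in fed PP. Sc5d came next in fasted PC (74.6 CPM per kb), fed PC (228) and fed PP (192), and in fasted PP it was level with Ebp (60.4 and 61 CPM per kb). The order below these differed between the groups, and Ggps1 was lowest of the tested genes in each, at 0.898 to 1.3 CPM per kb.

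**Figure D3:**
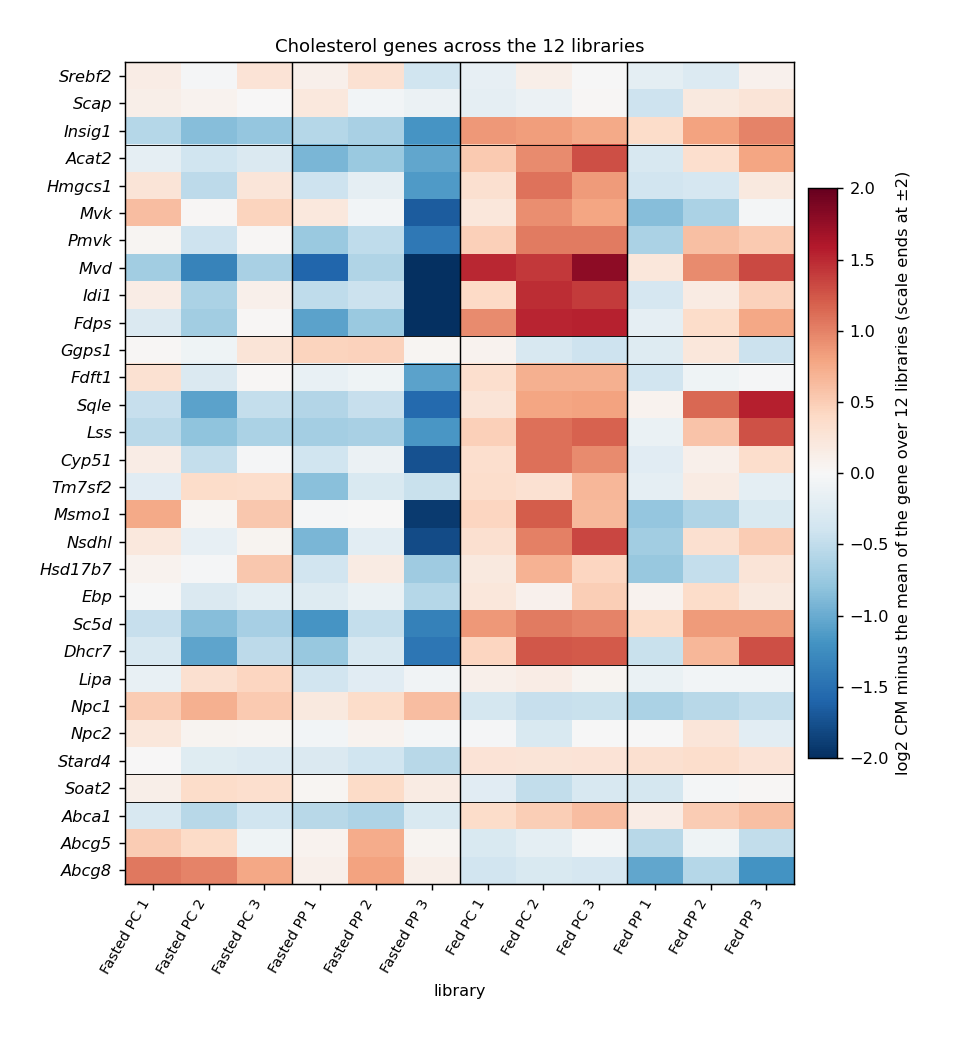
Log2 CPM of the 30 tested cholesterol genes in each library, as the difference from the gene's mean over 12 libraries, with the scale ending at ±2; black lines part the groups and the roles. The synthesis block is mostly blue in fasted and red in fed libraries, and fasted PP replicate 3 is its darkest blue column.

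Among genes of uptake and handling, fasting raised Npc1 and lowered Stard4, and Lipa and Npc2 were not called. Npc1 (chr18:12189692-12236400, - strand), the membrane protein that lets cholesterol out of lysosomes, stood at 262, 302 and 265 CPM in fasted PC libraries, against 145, 134 and 135 CPM in fed PC libraries. PP hepatocytes held 210, 238 and 282 CPM in fasted mice, against 119, 125 and 133 CPM in fed mice. All fasted libraries lay above all fed ones, and the log2 fold change was 1.00 ± 0.12 in PC (edgeR adjusted p = 0.00019) and 0.96 ± 0.12 in PP (edgeR adjusted p = 0.00032).

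Npc2, the soluble protein that hands cholesterol to the Npc1 protein, ranged from 83.9 to 95.4 CPM in fasted PC libraries against 66.4 to 81.6 in fed PC libraries, and from 78.8 to 85.8 CPM in fasted PP libraries against 71 to 96.4 in fed PP libraries. Its averaged log2 fold change was 0.09 ± 0.09 (edgeR adjusted p = 0.45). Lipa, lysosomal acid lipase, which frees cholesterol from esters, ranged from 211 to 317 CPM in fasted PC libraries against 244 to 261 in fed PC libraries, and from 181 to 225 CPM in fasted PP libraries against 215 to 227 in fed PP libraries. Its averaged log2 fold change was -0.01 ± 0.10 (edgeR adjusted p = 0.94).

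Stard4, a soluble sterol carrier of the cytosol, stood at 141, 119 and 116 CPM in fasted PC libraries, against 169, 168 and 170 CPM in fed PC libraries. Among PP libraries, 115, 107 and 96.2 CPM were measured in fasted mice, against 176, 180 and 169 CPM in fed mice. Its fed libraries lay close together and above every fasted library, with log2 fold changes of -0.43 ± 0.10 in PC (edgeR adjusted p = 0.01) and -0.72 ± 0.10 in PP (edgeR adjusted p = 0.00069). Mylip, whose product marks the LDL receptor for destruction, had 3 to 27 counts per library and was not tested, and such counts could not show a moderate change. It stood at 0.181 to 0.665 CPM in fasted PC libraries against 0.147 to 0.355 in fed PC libraries, and at 0.451 to 1.19 CPM in fasted PP libraries against 0.188 to 0.416 in fed PP libraries.

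Soat2, which esterifies cholesterol for storage and secretion, was raised in the averaged comparison and in PC. It stood at 47.5, 56.6 and 55.4 CPM in fasted PC libraries, against 37.6, 31.3 and 35.1 CPM in fed PC libraries. In PP it stood at 44.9, 57 and 48.9 CPM in fasted mice, against 34.4, 42.5 and 44.8 CPM in fed mice. The groups were apart in both zones, in PP by a narrow gap, and the log2 fold change was 0.62 ± 0.13 in PC (edgeR adjusted p = 0.0054) and 0.31 ± 0.13 in PP (edgeR adjusted p = 0.12).

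The exporters split with fasting: the bile transporter genes Abcg5 and Abcg8 were higher, and Abca1 lower. Abcg8 (chr17:84676302-84700333, + strand), one of the paired proteins that move cholesterol into bile, stood at 193, 185 and 159 CPM in fasted PC libraries, against 71.2, 75.7 and 73.5 CPM in fed PC libraries. Its PP values were 100, 162 and 101 CPM in fasted mice, against 45.1, 62.4 and 40.8 CPM in fed mice. Every fasted library lay above every fed one, and the log2 fold change was 1.29 ± 0.20 in PC (edgeR adjusted p = 0.00087) and in PP (edgeR adjusted p = 0.0011).

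Abcg5, the other protein of the pair, stood at 173, 158 and 115 CPM in fasted PC libraries, against 98.6, 106 and 118 CPM in fed PC libraries. PP hepatocytes held 127, 203 and 126 CPM in fasted mice, against 82.6, 115 and 86.7 CPM in fed mice. It overlapped in PC through fasted PC replicate 3 and was apart in PP, with an averaged log2 fold change of 0.58 ± 0.15 (edgeR adjusted p = 0.0092). Abca1 (chr4:53030787-53159895, - strand), which loads cholesterol onto apolipoprotein particles, stood at 144, 123 and 137 CPM in fasted PC libraries, against 233, 254 and 276 CPM in fed PC libraries. Among PP libraries, 122, 118 and 146 CPM were measured in fasted mice, against 199, 257 and 273 CPM in fed mice. No fasted library reached a fed one, and the log2 fold change was -0.92 ± 0.14 in each zone (edgeR adjusted p = 0.00073 in PC and 0.00091 in PP). The call of Abcg5 in PP alone (0.68 ± 0.21, edgeR adjusted p = 0.04) ended without replicate 2 of fasted PC, replicate 2 of fasted PP, any 1 fed PC library, or fed PP replicate 1 or 3 (0.42 to 0.69, adjusted p 0.052 to 0.15).

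The second question of the design is how the zones differ. Several synthesis genes and Abcg8 stood higher in PC than in PP hepatocytes, and none of the 30 tested genes was called lower. Averaged over both feeding states, 7 were higher in PC (Acat2, Hmgcs1, Fdps, Fdft1, Tm7sf2, Msmo1 and Abcg8) and 0 lower by edgeR, where 6.47% and 6.50% of all tested genes were, and 14 were higher and 0 lower at an unadjusted p under 0.05. The share of all genes at the unadjusted threshold was not counted. DESeq2 called 13 of the 30 higher, and it called 1943 genes in all, against 1567 by edgeR. Of the 18 synthesis enzymes, 17 had a positive averaged fold change, and their median was 0.61, against -0.01 over all tested genes.

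Within one feeding state few genes passed. In fasted mice edgeR called 1 of 30 higher in PC, Tm7sf2, and 0 lower, where 3.35% of all genes were higher and 3.05% lower (6.40% in all). DESeq2 called 2 of the 30 higher and 0 lower, and 1116 genes in all. Without overlap, 7 were higher in PC, as were 11.4% of all genes. In fed mice edgeR called 0, where 2.24% of all genes were higher and 2.47% lower (4.72% in all). At an unadjusted p under 0.05, 10 passed, all of them higher, and the share of all genes was not counted. DESeq2 called 5 (Hmgcs1, Mvk, Fdps, Fdft1 and Msmo1), and 909 genes in all. Without overlap, 11 were higher in PC, as were 12.9% of all genes. In each state 0 genes lay lower in PC without overlap, where 10.6% and 13.1% of all genes did. Fdps, Tm7sf2 and Msmo1 were higher without overlap in both states, as were 5.08% of all genes, and 0 were lower, as were 5.10%. edgeR called 0 in both states, where it called 1.64% of all genes higher and 1.59% lower in both.

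**Figure D4:**
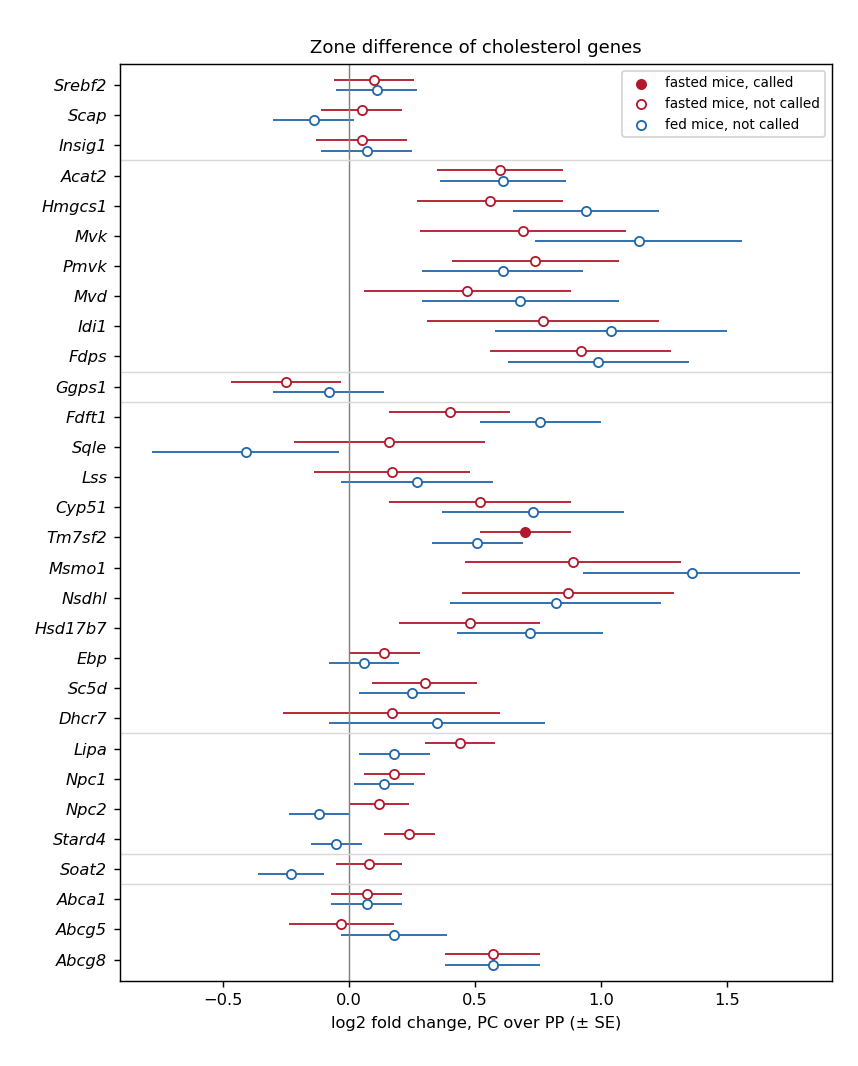
Log2 fold change, PC over PP, with its standard error, of the 30 tested cholesterol genes in fasted (upper, red) and fed (lower, blue) mice; the filled circle is the one that passed edgeR's adjusted p under 0.05, Tm7sf2 in fasted mice. The synthesis enzymes lie right of 0 but for Sqle in fed mice, at -0.41, and the regulators lie close to 0.

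Msmo1 had the highest averaged zone difference, 1.12 ± 0.30 (edgeR adjusted p = 0.036), with 179 to 294 CPM in fasted PC libraries against 46.2 to 174 in fasted PP libraries, and 236 to 405 CPM in fed PC libraries against 102 to 142 in fed PP libraries. Tm7sf2 had the smallest adjusted p, 0.0079 in edgeR, at a log2 difference of 0.60 ± 0.13. Fdps followed at 0.95 ± 0.25 (edgeR adjusted p = 0.031), Hmgcs1 at 0.75 ± 0.21 (0.034), Acat2 at 0.61 ± 0.18 (0.041) and Fdft1 at 0.58 ± 0.17 (0.04). Enzymes next to these were not all alike: Sqle had -0.13 ± 0.26 (edgeR adjusted p = 0.83) and Lss 0.22 ± 0.22 (0.6), and Mvk, at 0.92 ± 0.29, missed the threshold (0.062).

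Outside synthesis, Abcg8 was higher in PC by 0.57 ± 0.14 (edgeR adjusted p = 0.016), whereas its partner Abcg5 had 0.07 ± 0.15 (0.82) and Abca1 0.07 ± 0.10 (0.74). Lipa, at 0.31 ± 0.10, missed the threshold (edgeR adjusted p = 0.058). Insig1, Srebf2 and Scap had differences of 0.06, 0.11 and -0.04, none of them called. The 6 general hepatocyte markers summed to 80376 to 104408 CPM in fasted PC libraries against 141682 to 159185 in fasted PP libraries, and to 77308 to 82419 CPM in fed PC libraries against 121754 to 141964 in fed PP libraries. Most of this was Alb, and the other 5 markers summed to ranges that overlapped, 14820 to 18939 CPM in fasted PC libraries against 15436 to 21882 in fasted PP libraries, and 12542 to 15204 CPM in fed PC libraries against 14287 to 16369 in fed PP libraries. The 5 cholangiocyte markers summed to 13.5 to 25.1 CPM in fasted PC libraries against 33.7 to 37.3 in fasted PP libraries, and to 23.7 to 27.9 CPM in fed PC libraries against 36.1 to 47.3 in fed PP libraries. The part of Alb or of the cholangiocyte markers in the zone differences was not tested.

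Of the 7 averaged zone calls, those of Tm7sf2 and Abcg8 stood when any 1 library was left out, and the other 5 did not. Without fasted PC replicate 1, the library with little Glul, Acat2, Hmgcs1, Fdps, Fdft1 and Msmo1 were not called (log2 differences 0.59, 0.69, 0.96, 0.51 and 1.05, edgeR adjusted p 0.05 to 0.074) and Lipa was (0.39, adjusted p = 0.0052). The call of Acat2 also ended without fasted PC replicate 2 or 3, any 1 fasted PP library, replicate 2 or 3 of fed PC or replicate 2 of fed PP (adjusted p 0.052 to 0.095), and that of Hmgcs1 without fasted PC replicate 3, fasted PP replicate 1 or 3, replicate 2 or 3 of fed PC, or replicate 1 or 2 of fed PP (0.06 to 0.085). The call of Fdps ended without fasted PC replicate 3, fasted PP replicate 1, replicate 2 or 3 of fed PC, or replicate 1 or 2 of fed PP (0.058 to 0.072), and those of Fdft1 and Msmo1 without fasted PC replicate 3, fed PC replicate 2 or 3 or any 1 fed PP library (0.055 to 0.089). Other genes were called when a library was left out: Mvd, Nsdhl, Hsd17b7 and Sc5d without fasted PP replicate 2 (0.87, 1.08, 0.74 and 0.44), Hsd17b7 without fed PP replicate 3 (0.78), Mvk without fasted PP replicate 1 or 3 (1.09 and 0.73) and Lipa without fasted PP replicate 3 (0.36). The call of Tm7sf2 in fasted mice alone (0.70 ± 0.18, edgeR adjusted p = 0.043) stood without fasted PC replicate 1, fasted PP replicate 2 or fed PC replicate 3 and ended without any 1 of the other libraries (0.54 to 0.72, adjusted p 0.053 to 0.17). It also ended when only the fasted libraries were fitted (0.68, adjusted p = 0.12), where Acat2 was called in its place (0.59, adjusted p = 0.036). In fed mice alone Mvk, Fdft1 and Msmo1 were called without fasted PP replicate 3 (1.17, 0.78 and 1.37), and Abcg8 was called in each state without fasted PP replicate 2 (0.83 in fasted and 0.59 in fed mice). In fasted mice alone Lipa was called without fasted PC replicate 1 (0.59, adjusted p = 0.0086).

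The difference between the zones in their response to fasting was tested directly, as an interaction. edgeR called 0 of the 30 genes and 0% of all tested genes; 0 of the 30 passed an unadjusted p under 0.05, and DESeq2 called 0 of them and 11 genes in all. The highest estimate was that of Sqle, 0.57 ± 0.53, and the lowest that of Msmo1, -0.47 ± 0.60, so standard errors of this size leave room for sizeable differences between the zones. For Insig1 (-0.03 ± 0.25), Npc1 (0.04 ± 0.16), Abca1 (0.00 ± 0.19) and Abcg8 (0.00 ± 0.27) the estimates were closer to 0 and the errors smaller.

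Within each group the synthesis genes were high or low together in a library. The summed level of the 18 enzymes was 2807, 2055 and 2743 CPM in fasted PC libraries, against 4109, 5855 and 5723 CPM in fed PC libraries. It was 1848, 2280 and 1139 CPM in fasted PP libraries, against 2597, 3657 and 4287 CPM in fed PP libraries. Fasted PP replicate 3 was the lowest of its group for 17 of the 18 enzymes, fasted PC replicate 2 for 17, fed PP replicate 1 for 17 and fed PC replicate 1 for 15, and fasted PC replicate 1, the library with little Glul, was the highest of its group for 14. Pck1, a gluconeogenic enzyme that fasting raises, stood at 4382, 4672 and 4516 CPM in fasted PC libraries against 258, 80.5 and 45.1 CPM in fed PC libraries, and 8245, 6426 and 10349 CPM in fasted PP libraries against 1271, 791 and 332 CPM in fed PP libraries. In each group, the library with the lowest synthesis sum had the highest Pck1 level, though in fasted PC the Pck1 values lay close together. Pck1 is 1 of the 10 PP markers, a list chosen with earlier results of these data known. Sds, another of them that stood higher in fasted mice, did not share this order. It stood at 112, 16.2 and 32.6 CPM in fasted PC libraries, against 5.44, 10.8 and 6.32 CPM in fed PC libraries. Its PP values were 952, 818 and 825 CPM in fasted mice, against 158, 275 and 220 CPM in fed mice. Whether the mice of a group differed in how far they had eaten or fasted was not tested. The 4 erythroid markers summed to 4.48, 268 and 15.4 CPM in fasted PC libraries, against 16.3, 11.7 and 32.7 CPM in fed PC libraries, and to 5.07, 9.14 and 91.8 CPM in fasted PP libraries, against 7.97, 10.3 and 8.22 CPM in fed PP libraries. They were highest in the fasted library of each zone with the lowest synthesis sum, and their part in the result was not tested. Without fasted PC replicate 2, the averaged comparison called 13 of the 30 genes lower and 4 higher, and without fasted PP replicate 3 it called 15 lower and 4 higher.

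**Figure D5:**
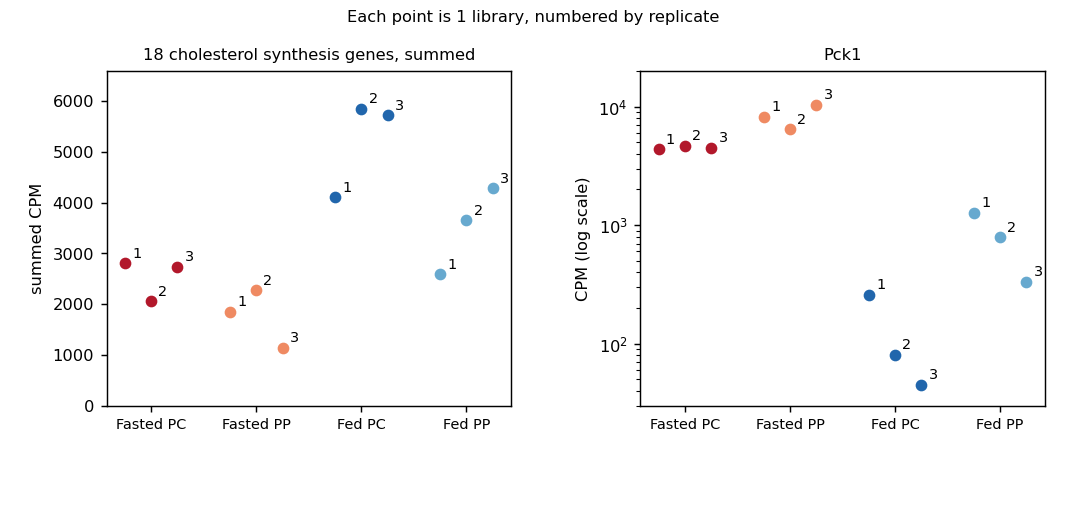
Left, the summed CPM of 18 cholesterol synthesis enzymes in each library; right, Pck1 in CPM on a log axis; numbers give the replicate. Fasted PP replicate 3 has the lowest sum, 1139, and the highest Pck1 level, 10349, and fed PC replicate 1 has the lowest sum and the highest Pck1 level of its group.

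Further genes of cholesterol metabolism that are not in the list of 31 were also read, 33 in all, of which 31 were tested (Soat1 and Pggt1b were not). Averaged over zones, fasting raised 10 and lowered 8 of them, against 17.8% and 17.5% of all genes. Among the suppliers of cytosolic acetyl-CoA, Acly, ATP citrate lyase, stood lower, at a log2 fold change of -4.06 with SE 0.38 (edgeR adjusted p = 3.1e-05) and Acss2, acetyl-CoA synthetase, was lower too, by a log2 fold change of -1.99 with SE 0.38 (edgeR adjusted p = 0.0028). Acly stood at 151, 114 and 130 CPM in fasted PC libraries, against 1856, 3119 and 4761 CPM in fed PC libraries, and at 270, 336 and 374 CPM in fasted PP libraries, against 1256, 4219 and 5631 CPM in fed PP libraries.

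Insig2, the second Insig gene, moved opposite to Insig1, at a log2 fold change of 0.89 with SE 0.15 (edgeR adjusted p = 0.00086). It stood at 130, 168 and 257 CPM in fasted PC libraries, against 102, 119 and 142 CPM in fed PC libraries, where it was not called (edgeR adjusted p = 0.067), and at 176, 192 and 239 CPM in fasted PP libraries, against 88, 84 and 96.2 CPM in fed PP libraries. Other genes raised included March6, a ubiquitin ligase of the endoplasmic reticulum (0.67 ± 0.08), the LXR gene Nr1h2 (0.49) and its partner Rxra (0.57), Scarb1, the receptor for high-density lipoprotein (0.70), Nceh1, an ester hydrolase (0.40), Lcat, which esterifies cholesterol in plasma (0.62), and the sterol carriers Stard3 (0.43) and Gramd1a (0.71). The second LXR gene, Nr1h3, was not called (-0.03 ± 0.08, edgeR adjusted p = 0.79). Its mean over all libraries was 94.8 CPM, against 31.2 CPM for Nr1h2. Other genes lowered included Osbp, an oxysterol-binding carrier (-0.94), the sterol carrier Gramd1b (-1.14) and Tmem97 (-0.40). Dhdds (-0.55) and Nus1 (-0.19), which act together in dolichol synthesis, were lower too. Gramd1b stood at only 0.201 to 1.46 CPM, with group means of 8 to 27 counts. Between the zones, 4 of the 31 were higher in PC in the averaged comparison and 0 lower, against 6.47% and 6.50% of all genes. These were Tmem97 (0.72 ± 0.14), Nceh1 (0.70 ± 0.12), Erg28 (0.63 ± 0.18) and Acat1, the mitochondrial thiolase (0.49 ± 0.11).

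Of these calls for fasting, 4 ended when 1 library was left out. That of Gramd1b ended when any of these was left out: replicates 1 and 2 of fasted PC, replicate 1 of fasted PP, replicates 1 and 3 of fed PC, replicates 2 and 3 of fed PP (log2 fold change -1.13 to -0.97, adjusted p 0.055 to 0.07), and that of Tmem97 without replicate 1 or 3 of fasted PC or fasted PP, or replicate 2 or 3 of fed PC or fed PP (-0.41 to -0.32, 0.067 to 0.1). That of Nceh1 ended without replicate 2 or 3 of fasted PC, replicate 2 of fasted PP, replicate 3 of fed PC, or replicate 1 or 3 of fed PP (0.33 to 0.37, 0.054 to 0.064), and that of Nus1 without replicate 1 or 2 of fed PC or replicate 1 of fed PP (-0.19 to -0.17, 0.052 to 0.059). The zone call of Erg28 stood without replicate 2 of either fasted zone, fasted PP replicate 3 or fed PP replicate 3 and ended without any 1 of the other libraries (0.55 to 0.68, 0.05 to 0.088). Insig2 was called in PC without fasted PC replicate 1 (0.79, adjusted p = 0.016). Other genes were called for fasting when a library was left out. These included the receptor gene Lrp1 without fasted PP replicate 1 (0.32), Gramd1c without fed PP replicate 1 (-0.37) and Fntb without fasted PP replicate 3 (-0.65). The exporter gene Abcg1 was called without replicate 3 of fed PC or replicate 1 of fed PP (1.28 and 1.29). Its group means were only 10 to 24 counts. Between the zones Acly (-0.95) and Gramd1c (-0.55) were called without fed PP replicate 1, Nr1h3 (0.27) without fasted PP replicate 1 and Scarb1 (-0.38) without fasted PC replicate 1.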

How the data were processed

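Total RNA of isolated hepatocytes was sequenced from NEBNext Ultra libraries, which do not mark strand, per the labels' protocols. The authors deposited 1 table of estimated counts per Ensembl gene, made with kallisto 0.46.0 on the build mm10, per the submitters' processing notes; the transcript annotation, trimming and strand setting are not given in the sources used here. In each library 27.9% to 32.7% of values had a fractional part, and all were rounded, which moved no total by more than 121. Symbols and coordinates came from GENCODE M21 (GRCm38), in which 27645 of the 28030 identifiers were found. Upstream sequences came from RefSeq's table of GRCm38.p6, with a window for 25 of the 31 genes.

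Genes were kept by edgeR's filterByExpr, normalised by TMM, the trimmed mean of M values, and fitted with 1 mean per group over 12 libraries (edgeR 4.0.16 in R 4.3.3, robust quasi-likelihood, 8 residual degrees of freedom, common biological coefficient of variation 0.206). Fasted was set against fed within each zone and averaged over zones, PC against PP within each feeding state and averaged over states, and the interaction was tested; the averaged comparisons weight both groups of a side equally. Calls were made at an adjusted p under 0.05 (Benjamini-Hochberg). SE was obtained from the log2 fold change and the root of its F statistic. CPM use TMM-scaled totals. The fit was tested on simulated data. Alternatives were DESeq2 1.42.0, relative log expression scaling, no filter on low counts, a replicate block, only the 2 groups compared, and leaving out each library.

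The 31 genes, the further pathway genes and the marker lists were chosen with earlier results of these data known. Genes called in any comparison, those without overlap in both zones or both states, and the 3 regulators are given with every library's value, the other listed genes by their range, and further pathway genes are named where called, except for some that are counted but not reported here by name. Libraries of one group differed by 25.1 to 79 in chi-square per degree of freedom, so none was a repeat of another. Nothing beyond the label says that the replicates were separate mice, so p-values reflect only how these libraries vary.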

Additional observations from a re-analysis of the deposited data

How the results depend on the processing

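No cholesterol gene that was called changed direction under any alternative run. The 14 genes called for fasting in PC became 11 to 19, the 15 in PP 10 to 16, and the 19 averaged over zones 16 to 21, over all alternatives; 16 of those 19 were called under every one, and Idi1, Cyp51 and Nsdhl were not. Zone counts moved more. In fasted mice 1 gene was called, against 2 with DESeq2, 2 with the replicate block, a different 1 (Acat2 and not Tm7sf2) when only the 2 groups compared were fitted, and 0 to 2 with 1 library left out. In fed mice 0 were called, against 5 with DESeq2, 1 with the replicate block, 3 when only the 2 groups compared were fitted and 0 to 3 with 1 library left out. Averaged over states 7 were called, against 13 with DESeq2, 2 with no filter on low counts, 4 with the replicate block and 2 to 10 with 1 library left out. The interaction gave 0 throughout. Of the further pathway genes, the averaged fasting call of Nus1 ended with no filter on low counts (-0.19, adjusted p = 0.084) and the averaged zone call of Erg28 ended with no filter (0.64, adjusted p = 0.07) and with the replicate block (0.63, adjusted p = 0.074). The cause of these shifts was not tested. Over all genes, the 2582 calls for fasting in PC became 1593 to 2930 over all alternatives. The 2162 in PP became 1405 to 2588, and the 4264 averaged over zones 3549 to 4529. The 1567 zone calls averaged over states became 1943 with DESeq2, 1410 with no filter and 1627 with the replicate block. With 1 library left out they became 1164 to 1739. The 774 zone calls in fasted mice became 376 with only the 2 groups and 386 to 1005 with 1 library left out. The 570 in fed mice became 909 with DESeq2 and 292 to 701 with 1 library left out.

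Replicate numbers are shared by the groups, but the labels do not say that a number marks a mouse, so the samples were not treated as paired. Of 18 same-numbered pairs, 3 had correlated deviations over 0.1 (-0.12 to 0.27). All 3 set PC against PP within a feeding state, the only kind of pair that could share a mouse. They were replicate 1 of fasted mice (0.19) and replicates 1 and 3 of fed mice (0.27 and 0.15). The remaining same-numbered pairs of this kind had -0.12 and 0.09 in fasted mice and 0.02 in fed mice. Pairs of this kind with different numbers ran from -0.27 to 0.22. The highest of them was fasted PC replicate 2 with fasted PP replicate 3, so high values were not confined to shared numbers. Of 12 libraries, 7 lay closest to one of their own number. Whether any pair shared a mouse cannot be told from the labels. The replicate block gave 11 calls for fasting in PC, 14 in PP and 17 averaged over zones, against 14, 15 and 19 without it. Over all genes it gave 2696, 2223 and 4340 calls, against 2582, 2162 and 4264 without it. In the averaged zone comparison it did not call Hmgcs1, Fdps, Fdft1 and Msmo1 (adjusted p 0.06 to 0.07) and called Lipa (0.039), and it called Abcg8 in each feeding state (0.034 in fasted and 0.04 in fed mice). Mylip, at 3 to 27 counts, is the one gene whose depth kept it from a test.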

Other observations

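Ratios of 2 cholesterol genes within a library do not depend on its scaling; the pairs below were chosen after their values were seen, so they are given as values without a test. Mvd over Mvk, both mevalonate enzymes, was 0.585 to 0.706 in fasted PC libraries against 2.09 to 3.62 in fed PC libraries, and 0.437 to 1.02 in fasted PP libraries against 3.19 to 4.48 in fed PP libraries. Sc5d over Msmo1, both sterol enzymes, was 1.41 to 1.76 in fasted PC libraries against 2.88 to 4.38 in fed PC libraries, and 1.46 to 4.84 in fasted PP libraries against 7.29 to 8.98 in fed PP libraries. Both ratios separate the feeding states within each zone, which shows unequal change among enzymes of 1 pathway and not which of them changed.

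Abcg8 over Abcg5, whose products work as a pair, was 1.12 to 1.38 in fasted PC libraries, 0.788 to 0.796 in fasted PP libraries, 0.625 to 0.722 in fed PC libraries and 0.47 to 0.547 in fed PP libraries, so that its ranges in the 4 groups did not overlap. Abcg8 over Abca1, the bile exporter over the lipoprotein exporter, was 1.16 to 1.5 in fasted PC libraries against 0.266 to 0.306 in fed PC libraries, and 0.688 to 1.38 in fasted PP libraries against 0.149 to 0.243 in fed PP libraries. Npc1 over Npc2 was 2.74 to 3.53 in fasted PC libraries against 1.66 to 2.02 in fed PC libraries, and 2.67 to 3.55 in fasted PP libraries against 1.29 to 1.87 in fed PP libraries. Fdps over Idi1, which act one after the other, ran from 0.549 to 0.708 in fasted PC libraries against 0.761 to 1.08 in fed PC libraries, and from 0.5 to 0.752 in fasted PP libraries against 0.824 to 0.92 in fed PP libraries.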
